A study of Mus musculus with 12 samples.

Results

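The AP-1 factors described here are the Fos and Jun transcription factors Fos, Fosb, Fosl2, Jun, Junb and Jund, followed at the transcript level in mouse cortex. Members were taken by gene symbol. Each is read from the row of the array whose annotation names that symbol alone. Of the 6 listed genes, 5 had such a row, out of 30184 genes with a row of their own. The only row of Junb is annotated to Junb and to Prdx2, a peroxiredoxin gene, so no level is given for Junb. All 5 genes with a row were among the 12566 genes tested, which exceeded the study's signal minimum on at least 1 array. Fosb passed this filter through other groups, because it lay below the minimum on all 3 Tg + Veh arrays used and above it elsewhere.

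Transcripts of cortex were read on 12 Clariom D arrays in 4 groups. Tg + Dox comprised 3 arrays (1 male, 2 female), Tg + Veh 4 arrays (2 male, 2 female), Non + Dox 2 arrays (both male) and Non + Veh 3 arrays (1 male, 2 female). Tg mice were of the rTg4510 line, which carries the transgenes Tg(Camk2a-tTA)1Mmay and Tg(tetO-MAPT*P301L)4510Kha/J, and Non mice were labelled FVB/NJ wild type. The labels also state a tau level for each Tg group, and by those statements Tg + Dox mice still made human tau above the mouse's own level. Backcrossed onto FVB/NJ, Tg mice make human P301L tau in forebrain neurons, where the Camk2a promoter drives the transactivator tTA, and doxycycline turns this expression down. Feeding began at 3.5 months and lasted 35 days, with normal feed (Veh) or with feed that held 200 ppm of doxycycline (Dox), and Non mice were littermates by the study's methods. The methods describe puromycin injection and isoflurane before brains were taken, and do not say whether the mice of the arrays were injected. Replicate 4 of Tg + Veh (female) failed the study's quality control and is left out unless named, which leaves 3 Tg + Veh arrays (2 male, 1 female).

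Fos and Jun proteins are basic leucine zipper factors that bind DNA as pairs. Fos proteins pair with Jun proteins, whereas Jun proteins can also pair with one another. Fos, Fosb and Junb are immediate-early genes of neurons. Their transcription starts within minutes of synaptic activity through the factors SRF and CREB, without new protein synthesis, and their RNA is short-lived. Jund is present more constantly, and the Jun protein is also known as a target of JNK kinases in stressed or injured neurons.

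The promoters of 3 members are shown because these genes lay on opposite sides of the Non + Veh level in Tg + Veh mice, Fos and Fosl2 below it and Jun above it. Each is the 250 bases before the RefSeq start of the gene (GRCm38.p6), at chr12:85473640-85473889 on the plus strand for Fos, at chr5:32136222-32136471 on the plus strand for Fosl2 and at chr4:95052223-95052472 on the minus strand for Jun. Capitals mark the motifs found.
Fos: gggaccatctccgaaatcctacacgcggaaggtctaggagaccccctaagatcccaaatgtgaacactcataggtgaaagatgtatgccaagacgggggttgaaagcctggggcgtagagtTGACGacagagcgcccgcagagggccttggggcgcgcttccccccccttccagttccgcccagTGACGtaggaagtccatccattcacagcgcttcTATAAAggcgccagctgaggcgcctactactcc
Fosl2: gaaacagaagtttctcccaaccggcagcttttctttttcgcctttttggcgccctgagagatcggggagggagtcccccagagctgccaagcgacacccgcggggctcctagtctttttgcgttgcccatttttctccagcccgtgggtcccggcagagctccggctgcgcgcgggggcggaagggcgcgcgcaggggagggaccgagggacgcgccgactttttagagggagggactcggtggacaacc
Jun: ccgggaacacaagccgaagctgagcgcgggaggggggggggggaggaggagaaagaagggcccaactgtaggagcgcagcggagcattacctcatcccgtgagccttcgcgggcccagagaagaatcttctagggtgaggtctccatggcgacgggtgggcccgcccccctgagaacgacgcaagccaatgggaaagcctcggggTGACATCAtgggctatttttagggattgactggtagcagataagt
In Fos the capitals are the CRE core TGACG, first 129 and 66 bases before the start, and the TATA box TATAAA, 33 bases before it. In Jun they are TGACATCA, an AP-1-like site known from the Jun promoter, 45 bases before the start. This last motif was added to the search after the others. No motif searched was found before the start of Fosl2 or Jund, and TGACG was found once each in the windows of Fosb and Junb. The window of Fosb, chr7:19310046-19310295 on the minus strand, overlaps the coordinates of the gene, which end at 19310118. Its TGACG lies inside those coordinates, and so not before the gene as they place it. The search covered both strands for the CArG box of SRF, TGACGTCA, TGACG, which is part of TGACGTCA, TGANTCA, TGACATCA and TATAAA. Elements further upstream, such as the serum response element of Fos, which SRF binds, lie outside these windows and were not searched. Among 32851 RefSeq promoters, 17.8% held TGACG, 12.4% TATAAA, 2.93% TGACATCA, 6.75% TGANTCA, 1.55% TGACGTCA and 1.47% the CArG box in the same window.

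Genotype labels were checked on Fgf14, a sodium channel regulator that the tau transgene interrupts in this line. Its log2 signal lay between 10.85 and 11.34 for the 7 Tg arrays, and between 12.01 and 12.29 for the 5 Non arrays. Genes at the tTA insertion did not follow the labels on 2 Non arrays. Esyt2, a membrane tether protein, had a log2 signal of 9.45 to 9.74 in Tg mice, and read 9.60 on Non + Veh 3 and 9.61 on Non + Dox 2, against 10.86 to 11.23 for the remaining Non mice. Results are therefore also given without those 2 arrays. Medians of the arrays were between 5.441 and 5.503, and 5.576 for Tg + Veh 4. Markers of neurons were high in every group, with a mean log2 signal over 8 genes of 14.64 to 14.86 on the 11 arrays, and the 5 markers of cortex layers that had a row, of 6 listed, averaged 9.75 to 10.04. Ttr, the transthyretin of choroid plexus, ranged from 8.12 to 15.27 over the 11 arrays, and its part in the results was not tested.

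The first comparison asks how AP-1 transcripts differ between Tg and Non mice on normal feed. Fos, Fosb and Fosl2 were below the level of Non + Veh mice on every Tg + Veh array, and Jun was above it, but none of the 5 genes was called by limma at an adjusted p under 0.05. Over all genes tested, 2.00% were called in this comparison, 234 higher and 17 lower. At an unadjusted p under 0.05, 3 of the 5 members passed (Fos, Fosb and Fosl2), against 13.6% of all genes. The point estimates were a 0.666-fold level for Fos, 0.701-fold for Fosb, 0.748-fold for Fosl2, 1.27-fold for Jun and 0.945-fold for Jund. Every Tg + Veh array lay below every Non + Veh array for 4 members, Fos, Fosb, Fosl2 and Jund, as it did for 5.28% of all genes tested. For 1 member, Jun, every Tg + Veh array lay above, as for 13.5% of all genes. Replicate 4 of Tg + Veh, left out here, was at 7.03 for Fosb, 7.42 for Fosl2, 8.28 for Jund and 7.43 for Jun. With it, none of these genes would separate from Non + Veh, and for Jund it lay above every Non + Veh array. Fos, at 7.42 on replicate 4, would stay just below the lowest Non + Veh array, at 7.43.

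Fos, the gene most used to mark recently active neurons, lies on chromosome 12 (85473890 to 85477274). Its log2 signal was 7.31, 7.24 and 7.14 in Tg + Veh mice, against 7.43, 8.05 and 7.98 in Non + Veh mice. The groups did not overlap, although Non + Veh 1 was only slightly above the highest Tg + Veh array. The means were 7.23 ± 0.0852 in Tg + Veh and 7.82 ± 0.34 in Non + Veh (SD, n = 3 each). The log2 change was −0.59 (standard error 0.194, 95% interval −1.02 to −0.15), with an unadjusted p of 0.0143 and an adjusted p of 0.212 from limma. The gap was larger than the SD within groups, 0.265 pooled over the 4 groups, yet it did not pass the test over all genes. Of the genes tested, 0.382% had a more negative change. However, the SD of Fos within groups was above that of 93% of genes. By limma's unadjusted p, Fos stood at rank 844, within the first 6.72% of genes.

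Fosb, a Fos paralog whose truncated splice form accumulates with repeated activity, lies on chromosome 7 (19302696 to 19310118). The row does not tell the splice forms apart. Its log2 signal was 6.69, 6.62 and 6.57 in Tg + Veh mice, against 7.01, 7.51 and 6.90 in Non + Veh mice. The 3 Tg + Veh values were close together and lay below the signal minimum, and Non + Veh 2 stood above the other Non + Veh arrays. The change was −0.51 (standard error 0.159, 95% interval −0.87 to −0.15, limma adjusted p = 0.184), and −0.33 without Non + Veh 2.

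Fosl2, which encodes the Fos-related antigen Fra-2, lies on chromosome 5 (32136472 to 32157840). Its log2 signal was 7.28, 7.07 and 6.91 in Tg + Veh mice, against 7.45, 7.71 and 7.35 in Non + Veh mice. The highest Tg + Veh array was just below the lowest Non + Veh array. The change was −0.42 (standard error 0.146, 95% interval −0.75 to −0.09, limma adjusted p = 0.24).

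Jun, the main partner of Fos, lies on chromosome 4 (95049036 to 95052222). Its log2 signal was 8.00, 7.92 and 7.98 in Tg + Veh mice, against 7.19, 7.78 and 7.92 in Non + Veh mice. The Tg + Veh arrays lay within a narrow band that met the highest Non + Veh array, and Non + Veh 1 was the lowest. The change was 0.34 (standard error 0.207, 95% interval −0.13 to 0.81, limma adjusted p = 0.509). Replicate 4 of Tg + Veh, which is left out of these values, was at 7.43, inside the Non + Veh range, and with all 12 arrays the change was 0.20. Without Non + Veh 1 it was 0.12.

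Jund, the Jun protein of steady expression, lies on chromosome 8 (70697739 to 70700616). Its log2 signal was 8.06, 7.90 and 8.06 in Tg + Veh mice, against 8.07, 8.07 and 8.12 in Non + Veh mice. The arrays nearly touched, and the change was −0.08 (standard error 0.0584, 95% interval −0.21 to 0.05, limma adjusted p = 0.582). Jund was also the member that varied least within groups. Its pooled SD was 0.0693, against 0.265 for Fos, 0.216 for Fosb, 0.198 for Fosl2 and 0.284 for Jun, with a median of 0.0995 over all genes tested.

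**Figure D1:**
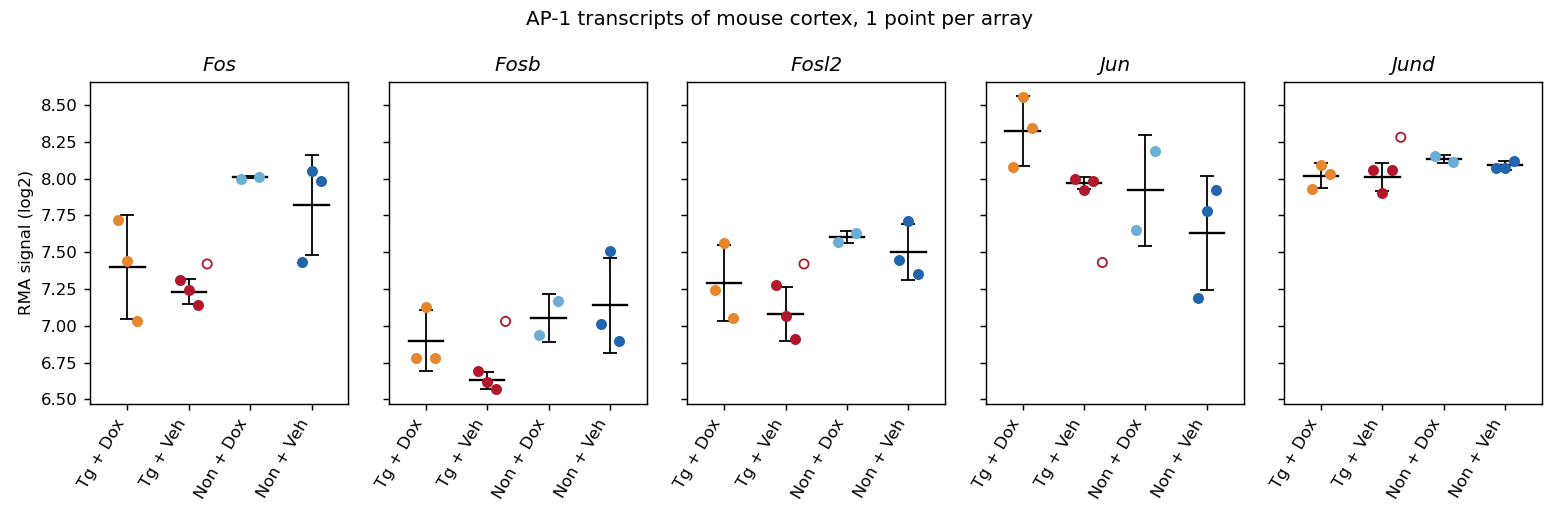
Log2 RMA signal (y axis) of Fos, Fosb, Fosl2, Jun and Jund on each array, with groups along the x axis. Filled points are the 11 arrays used, the open circle is Tg + Veh replicate 4, and lines and bars give the mean and SD of the filled points. Fos in Tg + Veh was at 7.14 to 7.31, below the Non + Veh arrays at 7.43 to 8.05.

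Sex is unevenly spread, so the same difference was taken within each sex. In males (2 Tg + Veh arrays, 1 Non + Veh array) Fos differed by −0.77, Fosb by −0.85, Fosl2 by −0.54, Jun by 0.18 and Jund by −0.09. In females (1 Tg + Veh array, 2 Non + Veh arrays) the values were −0.56 for Fos, −0.38 for Fosb, −0.49 for Fosl2, 0.43 for Jun and −0.04 for Jund. All 5 genes kept their sign in both sexes. This was fixed in advance, because the Tg + Veh and Non + Veh arrays did not overlap for any of them. There were too few arrays per sex for a test. Without Non + Veh 3 and Non + Dox 2, the arrays at odds with their label at the tTA site, the changes were −0.51 for Fos, −0.63 for Fosb, −0.50 for Fosl2, 0.49 for Jun and −0.06 for Jund, none of them called. With sex as a term in the fit, Fos had its lowest adjusted p in this comparison over all alternatives, 0.0961, at a change of −0.69, and its highest was 0.508.

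The second comparison asks how the genes stand in Tg mice on doxycycline feed, set against Tg mice on normal feed. All 5 point estimates were above 0, whereas 56.9% of all genes were below 0. Jund, at 0.01, changed sign under 4 of 21 alternatives. The Tg + Veh arrays also enter the first comparison, so a low value there lowers that change and raises this one. Limma called none of the 5 genes, against 0.692% of all genes (10 higher and 77 lower). At an unadjusted p under 0.05 there was again no member, against 16.0% of all genes. For 2 members, Fosb and Jun, every Tg + Dox array lay above every Tg + Veh array, as for 5.31% of all genes. Fos read 7.72, 7.44 and 7.03 in Tg + Dox mice, against 7.31, 7.24 and 7.14 in Tg + Veh mice. Tg + Dox 3 was thus below every Tg + Veh array, and the other Tg + Dox arrays were above them. The change of Fos was 0.17 (95% interval −0.27 to 0.60, limma adjusted p = 0.713), and it was 0.35 without Tg + Dox 3 and 0.00 without Tg + Dox 1.

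Fosb read 6.78, 7.13 and 6.78 in Tg + Dox mice, against 6.69, 6.62 and 6.57 in Tg + Veh mice, a change of 0.27 (95% interval −0.09 to 0.63, limma adjusted p = 0.446). Tg + Dox 2 was the highest of its group, and without it the change was 0.15. Fosl2 read 7.24, 7.56 and 7.05 in Tg + Dox mice, where the same array was again the highest, against 7.28, 7.07 and 6.91 in Tg + Veh mice. The groups overlapped, and the change was 0.20 (95% interval −0.13 to 0.53, limma adjusted p = 0.536). Without Tg + Dox 2 it was 0.06.

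Jun read 8.08, 8.55 and 8.34 in Tg + Dox mice, against 8.00, 7.92 and 7.98 in Tg + Veh mice. Its change was 0.35 (95% interval −0.11 to 0.82, limma adjusted p = 0.44). Jun therefore stood in Tg + Dox mice on the far side of Tg + Veh from the Non + Veh level, unlike the point estimates of Fos, Fosb and Fosl2. Jund read 7.93, 8.09 and 8.03 in Tg + Dox mice, against 8.06, 7.90 and 8.06 in Tg + Veh mice, a change of 0.01 (95% interval −0.12 to 0.14, limma adjusted p = 0.938).

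The remaining comparisons set Tg against Non mice on doxycycline feed, and Dox against Veh in Non mice. Only 2 Non + Dox arrays, both male, enter each. Limma called no gene of all those tested in either one (0% each). At an unadjusted p under 0.05, 1 of the 5 members (Fos) and 6.02% of all genes passed in Tg + Dox over Non + Dox, and no member and 10.6% of all genes (1328) in Non + Dox over Non + Veh. Fos read 7.72, 7.44 and 7.03 in Tg + Dox mice, against 8.00 and 8.01 in Non + Dox mice. Its change was −0.61 (95% interval −1.10 to −0.12, unadjusted p = 0.0202 and adjusted p = 0.739 from limma), close in size to that on normal feed. Fos, Fosl2 and Jund, 3 of the members, lay lower on every Tg + Dox array than on every Non + Dox array, as did 8.91% of all genes.

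Fosl2 differed by −0.32 between Tg + Dox and Non + Dox, Jund by −0.11, Fosb by −0.16 and Jun by 0.40, at adjusted p-values of 0.85 to 0.948 from limma. With 1 array left out, Jun ran from 0.14 (without Non + Dox 1) to 0.67 (without Non + Dox 2), Fosb from −0.28 (without Tg + Dox 2) to −0.04 (without Non + Dox 2), Fosl2 from −0.46 (without Tg + Dox 2) to −0.20 (without Tg + Dox 3), and Jund from −0.15 (without Tg + Dox 2) to −0.07 (without Tg + Dox 1). Fosl2 was at 7.57 and 7.63 in Non + Dox mice, Fosb at 6.94 and 7.17, and Jund at 8.15 and 8.11. Jun was at 7.65 on one Non + Dox array and 8.19 on the other, the widest gap of any member within this group. In Non + Dox over Non + Veh the changes ran from −0.09 for Fosb to 0.29 for Jun, at adjusted p-values of 0.739 to 0.917 from limma. The value of Jun was 0.02 without Non + Dox 2, 0.07 without Non + Veh 1 and 0.56 without Non + Dox 1. No member separated these groups, whereas 24.8% of all genes did so in one direction or the other.

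**Figure D2:**
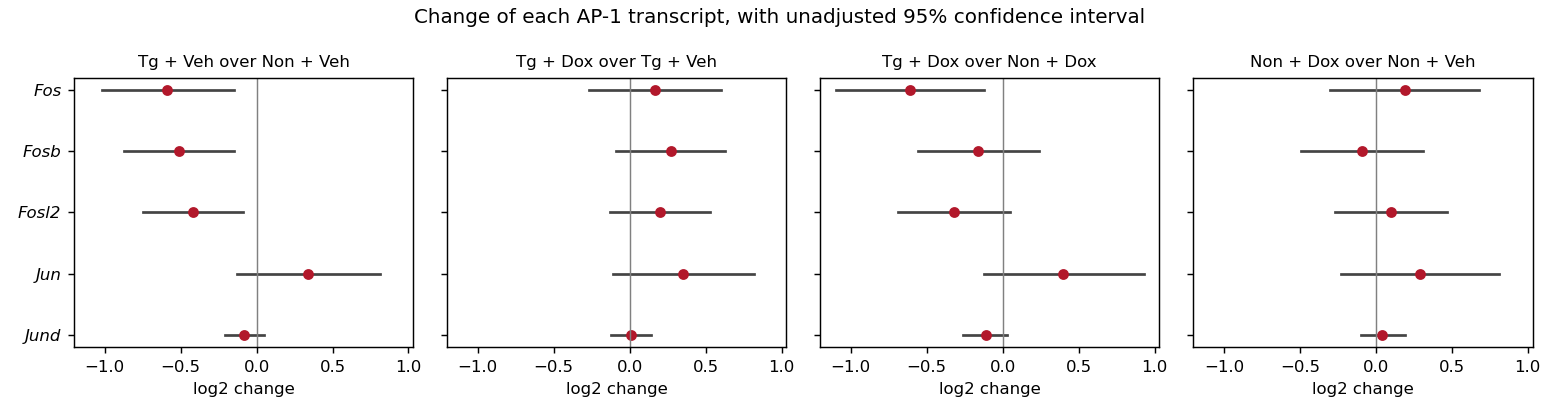
Log2 change (x axis) of each of the 5 genes in 4 comparisons, one per panel, with the unadjusted 95% interval from limma as a line. In Tg + Veh over Non + Veh the intervals of Fos (−1.02 to −0.15), Fosb (−0.87 to −0.15) and Fosl2 (−0.75 to −0.09) lay below 0, and no change passed the test after adjustment over all genes.

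Averaged over both feeds, Tg over Non used all 11 arrays. Fos ranged from 7.03 to 7.72 with a median of 7.27 on the 6 Tg arrays, and from 7.43 to 8.05 with a median of 8.00 on the 5 Non arrays. Only Tg + Dox 1 and 2 reached into the Non range, which Non + Veh 1 extended downwards. The change was −0.60 (standard error 0.145, 95% interval −0.93 to −0.27), with an unadjusted p of 0.00261 and an adjusted p of 0.118 from limma. Fosl2 followed at −0.37 (limma adjusted p = 0.201), Jun at 0.37 (0.392), Fosb at −0.33 (0.298) and Jund at −0.10 (0.435).

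No member was called in Tg over Non by limma, with 0.812% of all genes (102) called, a total that ran from 5 to 140 with 1 array left out. Unadjusted, 4 of the 5 (all but Jund) had a p under 0.05, against 11.8% of all genes. By the test of the study's methods, a two-way analysis of variance with a p of 0.01 or less and no adjustment, Fos passed for genotype, 1 of the 5 members, as did 3.77% of all genes. After Benjamini-Hochberg adjustment at 0.05, that test left 6 genes and no member. No member passed for feed, where 5.14% of all genes did, or for the interaction, where 1.46% did. For Dox over Veh averaged over both genotypes, limma called no member, against 0.501% of all genes, and no member had an unadjusted p under 0.05, against 17.6% of all genes. Jun had the largest change of the 5 at 0.32 (95% interval −0.03 to 0.67, adjusted p = 0.325), or 0.19 without Non + Dox 2. The interaction, the difference made by feed in Tg minus that in Non, ran from −0.03 for Jund to 0.36 for Fosb and was called by limma for no gene (0%), with no member and 8.23% of all genes (1034) at an unadjusted p under 0.05, so a differing response to feed between genotypes was not shown for any member.

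The order of the group means was nearly the same for the 3 Fos genes. Fos averaged 7.40 ± 0.351 in Tg + Dox (n = 3), 7.23 in Tg + Veh, 8.01 ± 0.00686 in Non + Dox (SD, n = 2) and 7.82 in Non + Veh. Fosl2 averaged 7.29 in Tg + Dox, 7.08 in Tg + Veh, 7.60 in Non + Dox and 7.50 in Non + Veh. Both were thus lowest in Tg + Veh, then Tg + Dox, Non + Veh and Non + Dox, and so was Jund, within the narrow span of 8.01 (Tg + Veh) to 8.13 (Non + Dox). Fosb averaged 6.90 in Tg + Dox, 6.63 in Tg + Veh, 7.05 in Non + Dox and 7.14 in Non + Veh, which exchanges the places of the 2 Non groups. Jun averaged 8.32 in Tg + Dox, 7.97 in Tg + Veh, 7.92 in Non + Dox and 7.63 in Non + Veh, in that order from high to low. Neighbours in these orders that the design compares were not called different for any member. Tg + Dox and Non + Veh, neighbours for Fos, Fosl2 and Jund, and Tg + Veh and Non + Dox, neighbours for Jun, were not compared by a test, and their arrays overlapped.

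Across the 11 arrays, Pearson r was 0.89 for Fosb and Fosl2, 0.78 for Fos and Fosl2 and 0.66 for Fos and Fosb, and −0.22 to −0.07 for Jun against the other 4 members. After the group means were removed, Fosb and Fosl2 stayed at 0.83, whereas Fos and Fosl2 were at 0.43 and Fos and Fosb at 0.30. Jun was then at 0.34 with Fos, 0.44 with Fosb, 0.26 with Fosl2 and 0.39 with Jund. Within groups, Fos with Fosb and Fos with Fosl2 therefore lay in the range of the pairs with Jun, and Fosb with Fosl2 above it. Points share arrays and groups, and these values are descriptions without a test.

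The genes whose levels were most like each member over the 11 arrays were found among all genes tested. With so many genes and only 11 arrays, high values of r can arise by chance. A link between these genes and the members was not tested. For Fos these were Apold1, itself an immediate-early gene of blood vessel cells (r = 0.926), Coq10b, of coenzyme Q function (0.896), and Gm16368 (0.866). For Fosb they were Dmtn, an actin-bundling protein (0.932), Mboat7, a lysophospholipid acyltransferase (0.930), and Fcho1, an endocytosis factor (0.928). For Fosl2 they were Rasgrf1, a neuronal Ras exchange factor (0.938), Sh3glb2 (0.937) and Zdhhc23 (0.936). Ilkap (0.942), Med12, of the Mediator complex (0.942), and Igf2r, a receptor that carries enzymes to lysosomes (0.924), were the nearest to Jun. Tfpt (0.921), Bcorl1 (0.855) and Selenow, a selenoprotein (0.852), were the nearest to Jund.

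Other immediate-early genes lay on the same side as Fos. Of 17 listed, 15 were tested, and all 15 were lower in Tg + Veh than in Non + Veh mice by point estimate, as were 40.5% of all genes. The list median was −0.59, against 0.021 over all genes. The list was chosen with earlier results of these data known, so its direction adds no support to that of Fos. The test called 1 of the 15, against 2.00% of all genes. It was Egr1, a zinc finger factor induced by synaptic activity. Egr1 read 9.24, 9.16 and 9.00 in Tg + Veh mice, against 10.23, 10.45 and 10.15 in Non + Veh mice, well apart, and fell by 1.15 on the log2 scale (limma adjusted p = 0.00452). With all 12 arrays the change was −0.98 and the call was lost (adjusted p = 0.0902). Arc (−1.69, adjusted p = 0.0648 from limma), Nr4a1 (−1.21, 0.136) and Egr3 (−1.04, 0.0968), chosen after their values were seen, had changes larger than that of Fos and were not called.

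In Tg + Dox over Tg + Veh, 13 of these 15 genes were higher and 2 lower by point estimate (median 0.23), none called, with the largest values in Egr1 (0.66, limma adjusted p = 0.0513) and Nr4a3 (0.62, 0.193). In Tg + Dox over Non + Dox all 15 were again lower (median −0.36), none called. Averaged over both feeds, all 15 were lower in Tg than in Non (median −0.43), and Egr1 alone was called, at −0.75 (limma adjusted p = 0.0134). That call was lost with all 12 arrays (0.227), without Non + Veh 3 and Non + Dox 2 (0.0741), and on leaving out Non + Veh 1, Non + Veh 2, Non + Dox 1 or Non + Dox 2 alone, at 0.0528 to 0.0606. These comparisons share arrays, so they are not independent of one another. Over all genes, the share below 0 was 56.9% in Tg + Dox over Tg + Veh, with 0.692% called. It was 51.6% in Tg + Dox over Non + Dox, with 0% called, and 45.4% in Tg over Non, with 0.812% called.

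Transcripts upstream of Fos and Jun did not pass the test. Of 17 listed symbols for SRF, its cofactors, CREB and MEF2 proteins, 14 were tested. The symbols Mkl1 and Mkl2 are older names of Mrtfa and Mrtfb, so these genes were listed under both names. None was called in Tg + Veh over Non + Veh, against 2.00% of all genes, with a list median of −0.02. The largest changes were in Mrtfb, an SRF cofactor (−0.34, limma adjusted p = 0.129), and Crtc1, a CREB coactivator (−0.32, 0.284). In Tg + Dox over Tg + Veh the same 2 genes had the largest values, 0.41 for Crtc1 and 0.27 for Mrtfb, neither called, against 0.692% of all genes. With shares this low, the absence of calls in this list and those that follow says little about them. Of 21 symbols for kinases and degraders of Fos and Jun proteins, among them Cop1 and its older name Rfwd2, 14 were tested. None was called in either comparison, and the largest change in Tg + Veh over Non + Veh was −0.16, in Fbxw7, a ubiquitin ligase subunit for Jun. It was followed by Mapk10, the JNK of neurons (−0.15). Among 13 further bZIP partners, only 4 were tested, none called, with Maf at 0.17 and Atf2, a partner of Jun, at −0.13. RNA on an array says nothing of phosphorylation, which controls these proteins.

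Genes described as AP-1 targets were split. Of 18 listed, 8 were tested, 4 of them higher and 4 lower by point estimate in Tg + Veh over Non + Veh, and Vim and Cd44 were called, both higher. Of all genes tested, 40.5% were below 0 and 2.00% were called, 234 higher and 17 lower. Vim, an intermediate filament of astrocytes, rose by 1.52 (limma adjusted p = 0.0272), at 9.80, 9.93 and 8.94 in Tg + Veh mice, against 8.10, 7.98 and 8.04 in Non + Veh mice. Cd44, a hyaluronan receptor of glia, read 6.92, 6.81 and 6.56 in Tg + Veh mice, against 6.08, 6.17 and 6.14 in Non + Veh mice. It exceeded the signal minimum on Tg + Veh 1 and 2 only, so it was tested because it is high in that group, and neither its call (limma adjusted p = 0.0219) nor the count of 2 called adds support. Both genes are known from reactive astrocytes. Both calls were lost on leaving out any 1 Non + Veh array, Tg + Veh 1 or Tg + Veh 2 (adjusted p 0.0593 to 0.111), without Non + Veh 3 and Non + Dox 2 together (0.0574 for Cd44, 0.0923 for Vim), with the replicate number as a block (0.062 for Cd44, 0.0762 for Vim) and with all 12 arrays (0.2 for Cd44, 0.235 for Vim). The call of Vim was also lost with sex as a term (0.0569) and with no filter on dim genes (0.0593). In Tg + Dox over Tg + Veh no gene of the list was called, against 0.692% of all genes, with Vim at −1.18 and Cd44 at −0.38.

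**Figure D3:**
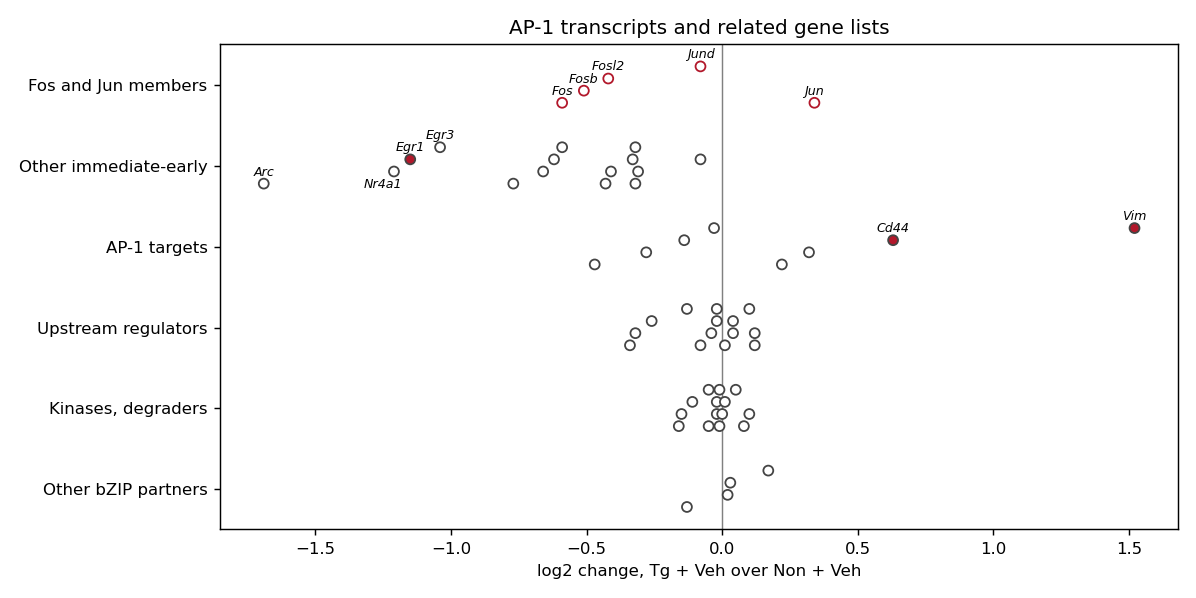
Log2 change in Tg + Veh over Non + Veh (x axis) for the 5 AP-1 genes and the tested genes of 5 related lists, one row per list with 1 circle per gene, spread vertically only for legibility. Filled circles passed limma's test at an adjusted p under 0.05. All 15 other immediate-early genes lie left of 0, from −1.69 (Arc) to −0.08, and the filled ones are Egr1, Cd44 and Vim.

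Cell type markers moved with the Tg + Veh group. The mean log2 signal of 7 astrocyte markers was 10.62 to 10.98 in Tg + Veh mice, against 9.60 to 9.88 in Non + Veh mice, and 5 of the 6 tested were called higher. It was 9.97 to 10.40 in Tg + Dox mice and 9.67 to 9.70 in Non + Dox mice. The 6 microglial markers were at 7.60 to 8.07 in Tg + Veh mice, against 7.16 to 7.41 in Non + Veh mice, with 1 of 4 tested called. The 5 oligodendrocyte markers were at 11.12 to 11.22, against 10.70 to 10.81, with 3 of 5 called. In Tg + Dox mice the microglial markers were at 7.37 to 7.53 and the oligodendrocyte markers at 10.57 to 10.81. Mog, Mag and Cnp, 3 of the 5 oligodendrocyte markers, were called lower in Tg + Dox over Tg + Veh, against 0.692% of all genes called. No astrocyte or microglial marker was called there, and with all 12 arrays no gene was. The 8 neuronal markers were at 14.64 to 14.76 in Tg + Veh mice and 14.72 to 14.86 in Non + Veh mice, none called, 6 lower and 2 higher. Of all genes tested, 2.00% were called in Tg + Veh over Non + Veh. With all 12 arrays only 1 gene was called there, so at most 1 of the marker calls in that comparison held. In bulk tissue, fewer cells of a type and less RNA per cell cannot be told apart. The part of cell composition in the values of Fos, Fosb, Fosl2 and Jun was not tested.

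**Figure D4:**
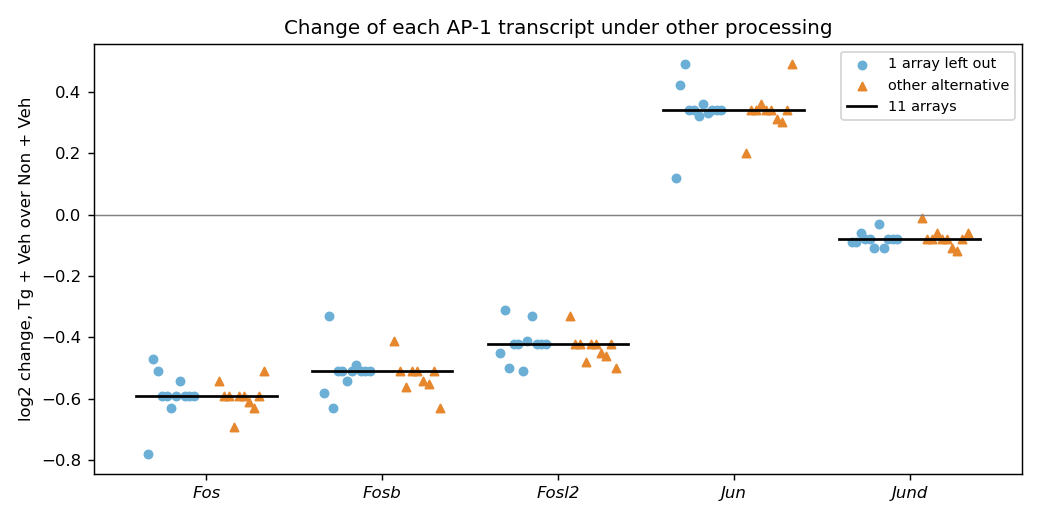
Log2 change in Tg + Veh over Non + Veh (y axis) of each AP-1 gene (x axis), as reported from 11 arrays (line), with 1 array left out (blue circles) and under the other processing alternatives (orange triangles). Every value of Fos (−0.78 to −0.47), Fosb (−0.63 to −0.33) and Fosl2 (−0.51 to −0.31) lay below 0, and every value of Jun (0.12 to 0.49) above it. Leaving out 1 array could not change a sign, because the groups did not overlap on the 11 arrays for any of these genes.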

How the data were processed

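Total RNA of cortex was hybridised to Mouse Clariom D arrays. The authors computed signals with RMA and deposited them as log2 values, 1 per transcript cluster, and the version of RMA is not given in the sources used here. Of 65956 clusters, 30646 carry 1 symbol in the platform annotation. For a symbol with several rows, the row of highest mean was kept. Genes above the study's signal minimum on at least 1 of the 11 arrays (12566) were fitted with 1 mean per group in limma 3.58.1 (R 4.3.3, lmFit and eBayes), with Benjamini-Hochberg adjustment over all of them and a threshold of 0.05. The fit was tested on simulated data. Precision is limited by the number of arrays. The series calls its samples biological replicates without saying how many mice each holds, and p-values therefore reflect only the spread among these samples. Deviations from group means had a median r of −0.082 over 15 pairs of same-numbered arrays, and −0.018 over 30 pairs of different number. These values cannot decide whether arrays were paired. Alternatives were all 12 arrays, other filters, sex or replicate number as a term, another variance model, quantile normalization, median centring, row averaging, the methods' two-way test, and leaving out arrays. Context genes named are those called, or otherwise the 2 of largest change, and the 3 most alike per member by Pearson r, with Arc, Nr4a1 and Egr3 added after their values were seen. The members and lists were chosen with earlier results of these data known. Gene positions and promoters come from RefSeq (GRCm38.p6), which held all 6 members.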

Additional observations from a re-analysis of the deposited data

Results flagged for a closer look

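Jun among the 4 Tg + Veh arrays was at a log2 signal of 7.43 on replicate 4, which failed the study's quality control, against 7.92, 7.98 and 8.00 on the others. The gap to the nearest array took up most of the range of the group. Chance alone marks about 1 in 20 such groups, and 5 genes were looked at. Replicate 4 was at 7.42 for Fos, 7.03 for Fosb, 7.42 for Fosl2 and 8.28 for Jund, in each case above the other Tg + Veh arrays.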

How the results depend on the processing

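No member was called under any alternative except the methods' two-way test, which passed 1, Fos at −0.60 for genotype. Of 743 member values under alternatives, 716 kept direction and side of the threshold, 1 passed it, and 26 changed sign, all of them uncalled and none in Tg + Veh over Non + Veh, Tg + Dox over Non + Dox or Tg over Non. In Tg + Veh over Non + Veh, leaving out arrays could not change a sign, because the groups did not overlap for any tested member. With all 12 arrays Jund was at −0.06 in Tg + Dox over Tg + Veh and −0.01 in Dox over Veh. With sex as a term Jund was at −0.01 in Tg + Dox over Tg + Veh, Fos at −0.03 and Fosl2 at −0.01 in Non + Dox over Non + Veh, and Fos at 0.30 in the interaction. Without Non + Veh 3 and Non + Dox 2, Fosl2 was at −0.01 in Non + Dox over Non + Veh and Fosb at −0.03 in Dox over Veh. In the interaction, Fos was at 0.03 with the replicate block and 0.02 with median centring, and Jund at 0.01 with median centring and with quantile normalization. With 1 array left out, Jund was at −0.04 to 0.06 in Tg + Dox over Tg + Veh. In Non + Dox over Non + Veh, Fos was at −0.01 to 0.30 and Fosb at −0.21 to 0.10. In the interaction, Fos was at −0.19 to 0.17, Fosl2 at −0.04 to 0.22, Jun at −0.20 to 0.33 and Jund at −0.08 to 0.01. The cause of these sign changes was not tested. The replicate block called 0 members and changed the total in Tg + Veh over Non + Veh to 122 genes, against 251 without it. Deviations from group means correlated at −0.304 to 0.407 between same-numbered arrays and at −0.403 to 0.356 between differently numbered ones. With means of 2 or 3 arrays these deviations depend on one another, so the values cannot decide whether arrays were paired. Leaving out 1 array gave totals of 64 to 248 there (all 12 arrays 1), 3 to 177 genes in Tg + Dox over Tg + Veh (87 reported), 5 to 140 in Tg over Non (102 reported), 0 to 289 in Dox over Veh (63 reported), 0 to 12 in the interaction and 0 to 3 in each of the other comparisons, where 0 were reported. The other limma alternatives gave 1 to 248, 0 to 88, 1 to 108 and 0 to 81 genes in the first 4 of these comparisons. Egr1 in Tg + Dox over Tg + Veh passed the threshold with the block (0.66), quantile normalization (0.68), median centring (0.69) and without Tg + Dox 3 (0.76). Fosb could not be tested where genes had to exceed the minimum on all 11 arrays.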
